A study of Mus musculus with 16 samples.

Results

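The complement components and receptors described here are 9 genes: the chains of the initiator C1q (C1qa, C1qb and C1qc), the central components C4b and C3, the receptors C3ar1 and C5ar1, and the chains of complement receptor 3 (Itgam and Itgb2). They were found by gene symbol among the 55385 genes of the deposited count table, and all 9 passed the low-count filter that left 16684 genes for testing. Polyadenylated RNA of mouse hippocampus at 5 months of age was sequenced from 4 wild-type C57BL/6J, 4 Dp16, 4 5xFAD and 4 5xFAD-Dp16 samples. Dp16 mice carry a duplication of the segment of mouse chromosome 16 that is orthologous to a large part of human chromosome 21, the chromosome triplicated in Down syndrome. 5xFAD mice carry human transgenes with familial Alzheimer mutations, driven in neurons by the Thy1 promoter, and 5xFAD-Dp16 mice carry both changes. Wild-type, Dp16 and 5xFAD groups each held 2 males and 2 females, whereas all 4 5xFAD-Dp16 samples were male. 5xFAD-Dp16 was compared with Dp16 so that both groups carry the duplication, and with 5xFAD so that both carry the transgenes. No member lies on chromosome 16. The design text counts 4 mice per genotype, whereas the labels give no animal numbers and name the C57BL/6J background for wild-type alone.

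Complement is a cascade of mostly secreted proteins that tags surfaces and debris for removal. In the classical pathway, C1q binds its target and activates the proteases C1r and C1s, which cleave C4 and C2 into an enzyme that in turn cleaves C3. Fragments of C3 left on the target are bound by complement receptor 3 on phagocytes, and the released peptides C3a and C5a act through the receptors C3ar1 and C5ar1. In the brain, microglia are the main source of C1q and carry complement receptor 3, astrocytes are a source of C3 and C4, and complement has been studied for its part in the removal of synapses.

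The C1q chains are neighbours on GRCm38 chromosome 4, with C1qb at 136880129 to 136886187, C1qc at 136889804 to 136893065 and C1qa at 136895917 to 136898803, all on the minus strand within 18675 bases that hold no other annotated gene. C3 (57203970 to 57228136) and C4b (34728380 to 34743882) lie on the minus strand of chromosome 17. C3ar1 is on chromosome 6 (122847138 to 122856161, minus strand), C5ar1 on chromosome 7 (16246743 to 16259540, minus strand), Itgam on chromosome 7 (128062640 to 128118491, plus strand) and Itgb2 on chromosome 10 (77530252 to 77565708, plus strand). Of the 5024 exonic bases of Itgam, 3450 (68.7%) are shared on the same strand with the annotated gene Gm49368, which had 0 to 10 counts per library. If reads that match both genes were left out of both counts, Itgam was counted over the other 1574 bases only. How such reads were counted was not stated in the sources at hand, which makes the level of Itgam uncertain. C4b has a near-identical copy, C4a, to which reads may also have been assigned.

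Promoter sequences from RefSeq (GRCm38.p6) were found for 6 of the 9 members: C1qb, C1qc, C3, C3ar1, C5ar1 and Itgam. The 250 bases before the start given with each promoter were searched on both strands. The motif AGGAAGT, a core bound by the myeloid factor PU.1, was in 3 of the 6, against 7.69% of 32851 promoters of this length. These 3 are shown, 5′ to 3′ on the strand of the gene, with the match (here on the opposite strand) in capitals, because 2 of them are C1q chains that moved together and the other is a gene that did not pass. The C1qb window is chr4:136886201-136886450, the C1qc window chr4:136892915-136893164 and the C5ar1 window chr7:16259339-16259588, all on the minus strand. Their starts are not the gene starts annotated in GENCODE vM21, which are at 136893065 for C1qc and 16259540 for C5ar1. The windows of C1qc and C5ar1 therefore lie partly inside the annotated genes.
C1qb: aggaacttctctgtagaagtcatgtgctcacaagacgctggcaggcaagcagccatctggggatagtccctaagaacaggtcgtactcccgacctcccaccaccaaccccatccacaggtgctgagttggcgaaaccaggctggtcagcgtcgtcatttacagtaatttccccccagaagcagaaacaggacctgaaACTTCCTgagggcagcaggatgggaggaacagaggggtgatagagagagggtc
C1qc: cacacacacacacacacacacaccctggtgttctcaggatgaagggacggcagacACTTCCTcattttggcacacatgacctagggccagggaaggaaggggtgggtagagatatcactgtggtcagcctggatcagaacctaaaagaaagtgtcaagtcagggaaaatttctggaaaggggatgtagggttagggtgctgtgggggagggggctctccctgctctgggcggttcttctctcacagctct
C5ar1: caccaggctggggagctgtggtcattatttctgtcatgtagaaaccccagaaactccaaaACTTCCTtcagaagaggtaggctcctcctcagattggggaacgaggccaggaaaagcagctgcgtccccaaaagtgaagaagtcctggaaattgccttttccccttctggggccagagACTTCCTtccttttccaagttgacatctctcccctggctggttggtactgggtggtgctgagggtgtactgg
Counted from the start given with the promoter, the match lies at bases -53 to -47 in C1qb and -195 to -189 in C1qc. C5ar1 has matches at -190 to -184 and -72 to -66, both inside the annotated gene. The C/EBP motif TTGCNNAA was found in C3 (9.56% of promoters), the AP-1 motif TGANTCA in C3ar1 (6.75%) and the IRF motif GAAANNGAA in C5ar1 (7.13%), where it overlaps a PU.1 match by 1 base. None of the 6 held the STAT motif TTCNNNGAA (7.02%), and the NF-kappaB motif was in C1qb, C1qc, C3 and C3ar1 (23.2%). The Itgam window held none of these motifs. A match says only that these letters are present.

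Library totals ranged from 15.8 M to 25 M counts. Thy1 and App, which mark the transgene promoter and the duplicated segment, followed the labels: Thy1 was at 761 to 929 CPM in the 8 libraries without the transgenes and 1640 to 3080 CPM in the 8 with them, and App at 1650 to 2260 CPM without the duplication and 2640 to 3260 CPM with it. CPM (each count as a share of the library total in units of M counts) follow scaling of the libraries by the trimmed mean of M values. Markers of hippocampal neurons such as Prox1 (34 to 133 CPM) were present in all libraries. Of the 16 libraries 4 stood apart in genes of midbrain and hypothalamus, with scores of 1.73 in wild-type replicate 4, 2.29 in 5xFAD-Dp16 replicate 3, 3.26 in 5xFAD replicate 2 and 0.728 in 5xFAD replicate 4, against at most 0.0594 elsewhere. 5xFAD replicate 4 also had the highest thalamus score (5.78, against 3.73 to 4.67). A score is the mean log2 CPM of a marker list. Choroid plexus genes summed to between 40.3 and 6470 CPM within wild-type alone.

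Per gene length, C1q was the most abundant of the 9 in every genotype. In wild-type, RPKM (reads per kilobase of exon and per M mapped reads) were 64.8 ± 13.1 for C1qa, 43.6 ± 10.6 for C1qb and 37.2 ± 5.51 for C1qc (SD, n = 4). C4b followed at 7.71 ± 0.666 RPKM, then Itgb2 at 2.37 ± 0.442 and Itgam at 1.95 ± 0.158. C3 (0.551 ± 0.238), C3ar1 (0.461 ± 0.193) and C5ar1 (0.460 ± 0.142 RPKM) were lowest and lay within each other's spread, as did C1qb and C1qc and, further down, Itgb2 and Itgam. The deposited RPKM of C1qc rest on a length of 1203 bases, against 1931 exonic bases in GENCODE vM21, so that its place beside C1qb and its ratios depend on the length used, though not their comparison between genotypes. For C1qa (1040 bases) and C1qb (1088 bases) both lengths are the same. C5ar1 rested on 12 to 59 counts per library, C3ar1 on 24 to 177 and C3 on 36 to 157.

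**Figure D1:**
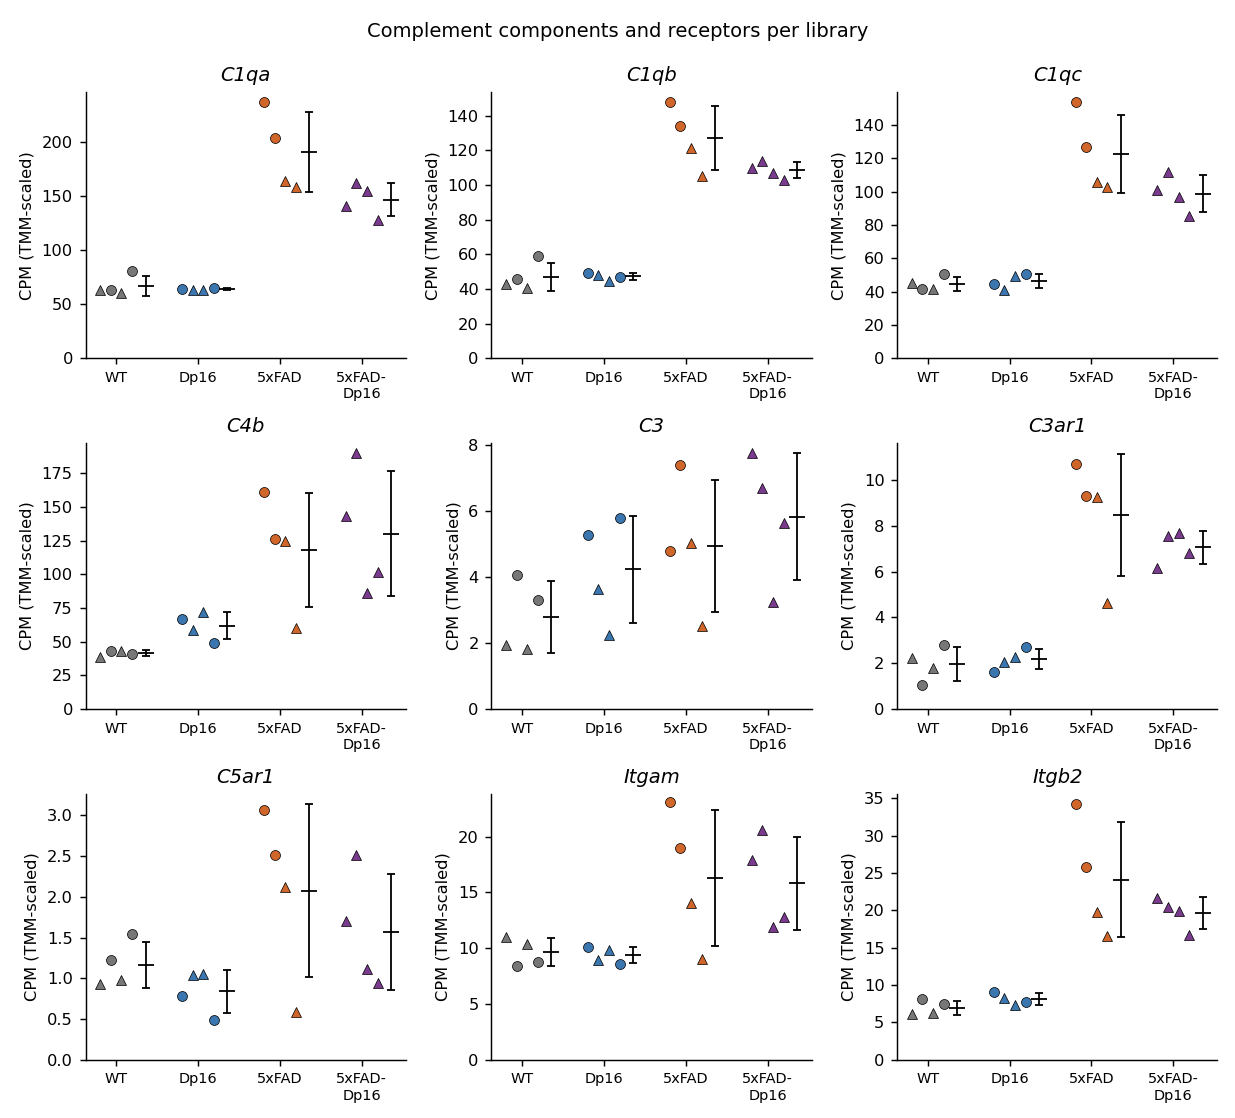
Level of each of the 9 members in each library (vertical axes from 0, CPM), by genotype. Circles are females, triangles males, and the black marks are the group mean and SD (n = 4). C1qa, C1qb, C1qc, C3ar1 and Itgb2 show no overlap between groups with and without the transgenes, while C3, C5ar1 and Itgam overlap between 5xFAD and wild-type.

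With the 5xFAD transgenes, 6 of the 9 members rose against wild-type, where edgeR called 162 of 16684 genes (0.971%) and all but 1 of those rose. Those 6 were C1qa, C1qb, C1qc, C4b, C3ar1 and Itgb2, at 2.71- to 4.26-fold. The remaining C3, C5ar1 and Itgam had fitted values of 1.65- to 1.81-fold and did not pass. On the duplication background, 5xFAD-Dp16 against Dp16, 5 of the 9 rose (141 genes, 0.845%), namely C1qa, C1qb, C1qc, C3ar1 and Itgb2. The median over the 9 was log2 1.45 in the first comparison and log2 1.19 in the other, beside 0.02 and 0.0202 over all genes tested. Every 5xFAD library lay above every wild-type library in 6 of the 9 (3.18% of all genes tested), and every 5xFAD-Dp16 library above every Dp16 library in 7 (3.71%). In RNA from whole tissue, more cells of a type and more RNA per cell cannot be told apart.

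The C1q chains form the recognition molecule of the classical pathway. C1qa was at 63.2, 63.5, 60.3 and 80.4 CPM in wild-type and 64, 63.5, 63.4 and 65.2 CPM in Dp16. In 5xFAD it was at 237, 204, 164 and 158 CPM, and in 5xFAD-Dp16 at 141, 162, 155 and 128 CPM. The lowest library with transgenes was thus above all 8 without them. C1qa rose 2.83-fold in 5xFAD (log2 1.5 ± 0.111 SE, adjusted p = 7.94e-07) and 2.47-fold in 5xFAD-Dp16 against Dp16 (log2 1.31 ± 0.119, adjusted p = 1.26e-05). C1qb was at 40.3 to 58.9 CPM in wild-type, 44.4 to 49.2 in Dp16, 105 to 148 in 5xFAD and 103 to 114 in 5xFAD-Dp16, again with no overlap. It rose 2.71-fold (log2 1.44 ± 0.0977, adjusted p = 3.51e-07) and 2.49-fold (log2 1.32 ± 0.105, adjusted p = 4.57e-06). C1qc was at 41.3 to 50.3, 41.1 to 50.3, 103 to 154 and 85.3 to 112 CPM in the same order of genotypes. It rose 2.72-fold (log2 1.45 ± 0.119, adjusted p = 2.59e-06) and 2.28-fold (log2 1.19 ± 0.127, adjusted p = 7.07e-05).

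C1q is assembled from all 3 chains, and their proportions on the RPKM scale stayed within narrow ranges. Over the 16 libraries C1qa was at 1.3 to 1.67 times C1qb and at 1.48 to 1.85 times C1qc, and C1qb at 0.993 to 1.34 times C1qc. In 5xFAD the C1qa to C1qb ratio was 1.56 ± 0.109 against 1.5 ± 0.0603 in wild-type (SD, n = 4). None of the 6 comparisons of a C1q ratio passed an exact two-sided permutation test (adjusted p = 0.457 to 1, over the 8 ratio tests of these data). The smallest p this test can give for 4 against 4 samples is 0.0286. The Itgam to Itgb2 ratio, at that value in both transgene comparisons, reached only adjusted p = 0.114, so a lone C1q ratio could not have passed. The result does not show that the C1q ratios are equal.

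C4b encodes complement C4, cleaved after C1q binds. It was at 38.5, 42.8, 43.4 and 40.8 CPM in wild-type, 67.2, 58.4, 72.3 and 49.2 in Dp16, 161, 126, 125 and 60 in 5xFAD and 143, 190, 86.3 and 102 in 5xFAD-Dp16. Wild-type was the tightest group and lay below all others, and 5xFAD replicate 4 at 60 CPM fell within the range of Dp16. C4b rose 2.82-fold in 5xFAD (log2 1.5 ± 0.263, adjusted p = 0.00717). With a 2.23-fold fitted value in 5xFAD-Dp16 against Dp16 (log2 1.16 ± 0.277, adjusted p = 0.0749) it did not pass there, although the groups did not overlap. That call was on the edge, since C4b passed there in 6 of 25 alternatives. It passed with DESeq2 (log2 1.14, adjusted p = 0.00722) and without the 4 libraries high in midbrain genes (0.0275). It passed without 5xFAD-Dp16 replicate 3 alone (0.0372), which is 1 of those 4. It also passed without 5xFAD replicate 4 (log2 1.08, adjusted p = 0.0338), which is in neither group compared and enters only through the shared fit. With the replicate number as a block it also passed (adjusted p = 0.0499). The remaining pass was the fit with no low-count filter (log2 1.16 ± 0.136, adjusted p = 8.45e-15). That fit had a smaller SE and called 128 genes for the interaction, where the fit with the filter called none. The copy C4a was at 0.0487 to 0.958 CPM over the 16 libraries. In males only, with 2 libraries in each of these groups, C4b in 5xFAD was at log2 1.17 and the call ended (adjusted p = 0.22).

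C3, whose fragments mark targets for uptake, was low and varied within every genotype. Its values were 1.95, 4.06, 1.83 and 3.31 CPM in wild-type, 5.28, 3.63, 2.23 and 5.78 in Dp16, 4.79, 7.41, 5.03 and 2.51 in 5xFAD and 7.75, 6.7, 3.24 and 5.63 in 5xFAD-Dp16. All groups overlapped except that 2 wild-type libraries, both male, lay below every other library. C3 was at 1.81-fold in 5xFAD (log2 0.86 ± 0.277, adjusted p = 0.28) and 1.94-fold in 5xFAD-Dp16 against Dp16 (log2 0.95 ± 0.298, adjusted p = 0.244) and passed in neither. As all 5xFAD-Dp16 libraries are male, the latter value includes a sex term (log2 0.854 for C3) estimated only in the genotypes with both sexes. The plain means were 4.23 CPM in Dp16 and 5.83 in 5xFAD-Dp16, and over the alternatives the fitted value ranged from log2 0.455 to 1.15. In wild-type and Dp16 both females were above both males in C3, whereas the sexes overlapped in 5xFAD.

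Of the peptide receptors, C3ar1 rose and C5ar1 did not pass. C3ar1, the receptor for C3a, was at 2.24, 1.05, 1.78 and 2.81 CPM in wild-type and 1.63, 2.07, 2.29 and 2.69 in Dp16. It was at 10.7, 9.3, 9.28 and 4.63 CPM in 5xFAD and 6.17, 7.55, 7.7 and 6.84 in 5xFAD-Dp16. No library with the transgenes fell to the level of one without, though 5xFAD replicate 4 was well under the other 5xFAD libraries. C3ar1 had the largest fitted change among the 9, 4.26-fold in 5xFAD (log2 2.09 ± 0.288, adjusted p = 0.000733) and 3.45-fold in 5xFAD-Dp16 against Dp16 (log2 1.78 ± 0.309, adjusted p = 0.00717). The latter call ended without Dp16 replicate 2 (adjusted p = 0.0502). Both calls ended in males only (log2 1.78, adjusted p = 0.0745, and log2 1.68, adjusted p = 0.054). They also ended with the homeostatic microglia score as a covariate (log2 1.25, adjusted p = 0.0572, and log2 0.92, adjusted p = 0.178). C5ar1, the receptor for C5a, was at 0.925 to 1.54 CPM in wild-type, 0.488 to 1.05 in Dp16, 3.07, 2.51, 2.12 and 0.592 in 5xFAD and 0.947 to 2.52 in 5xFAD-Dp16. In 5xFAD 3 of the 4 libraries were above wild-type and replicate 4 was below it. The fitted values were 1.73-fold (log2 0.79 ± 0.431, adjusted p = 0.625) and 2.07-fold (log2 1.05 ± 0.469, adjusted p = 0.563).

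Complement receptor 3 pairs the chain encoded by Itgam (CD11b) with the one encoded by Itgb2 (CD18). Itgb2 passed in both transgene comparisons and Itgam in neither. Itgb2 was at 6.13, 8.07, 6.28 and 7.43 CPM in wild-type and 9.11, 8.29, 7.32 and 7.73 in Dp16. It was at 34.2, 25.8, 19.8 and 16.6 CPM in 5xFAD and 21.7, 20.4, 19.9 and 16.7 in 5xFAD-Dp16. The groups with and without transgenes were apart, and both 5xFAD females were above both males. Itgb2 rose 3.39-fold (log2 1.76 ± 0.147, adjusted p = 3.16e-06) and 2.78-fold (log2 1.47 ± 0.157, adjusted p = 7.07e-05). Itgam was at 11, 8.38, 10.4 and 8.74 CPM in wild-type, 8.55 to 10.1 in Dp16, 23.1, 19, 14 and 9.02 in 5xFAD and 17.9, 20.6, 11.9 and 12.8 in 5xFAD-Dp16. Only 5xFAD replicate 4 overlapped wild-type, and 5xFAD-Dp16 lay above Dp16 throughout. The fitted values of 1.65-fold (log2 0.72 ± 0.237, adjusted p = 0.291) and 1.80-fold (log2 0.85 ± 0.254, adjusted p = 0.206) did not pass. Without 5xFAD replicate 4 Itgam passed in 5xFAD (log2 0.96, adjusted p = 0.0323), and without the 4 libraries high in midbrain genes it passed in 5xFAD-Dp16 against Dp16 (adjusted p = 0.0461).

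The ratio of Itgam to Itgb2 on the RPKM scale was 0.626 to 1.08 in wild-type, 0.651 to 0.807 in Dp16, 0.328 to 0.444 in 5xFAD and 0.361 to 0.607 in 5xFAD-Dp16. Neither group with transgenes overlapped its control. The exact permutation test gave p = 0.0286 in both comparisons, the smallest it can give for 4 against 4 samples, and adjusted p = 0.114 over the 8 ratio tests. Itgb2 also pairs with Itgal, Itgax and Itgad, the other alpha chains of leukocyte integrins. Itgax, the alpha chain of complement receptor 4, had 2 to 10 counts per library in wild-type and 3 to 7 in Dp16, against 90 to 297 in 5xFAD and 77 to 216 in 5xFAD-Dp16. It rose by log2 5.45 in 5xFAD (adjusted p = 1.57e-06) and log2 5.62 in 5xFAD-Dp16 against Dp16 (adjusted p = 7.31e-06). Itgal was at 0.584 to 1.35 CPM in wild-type and 0.69 to 1.17 in 5xFAD, and Itgad had 0 to 10 counts and was not tested.

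**Figure D2:**
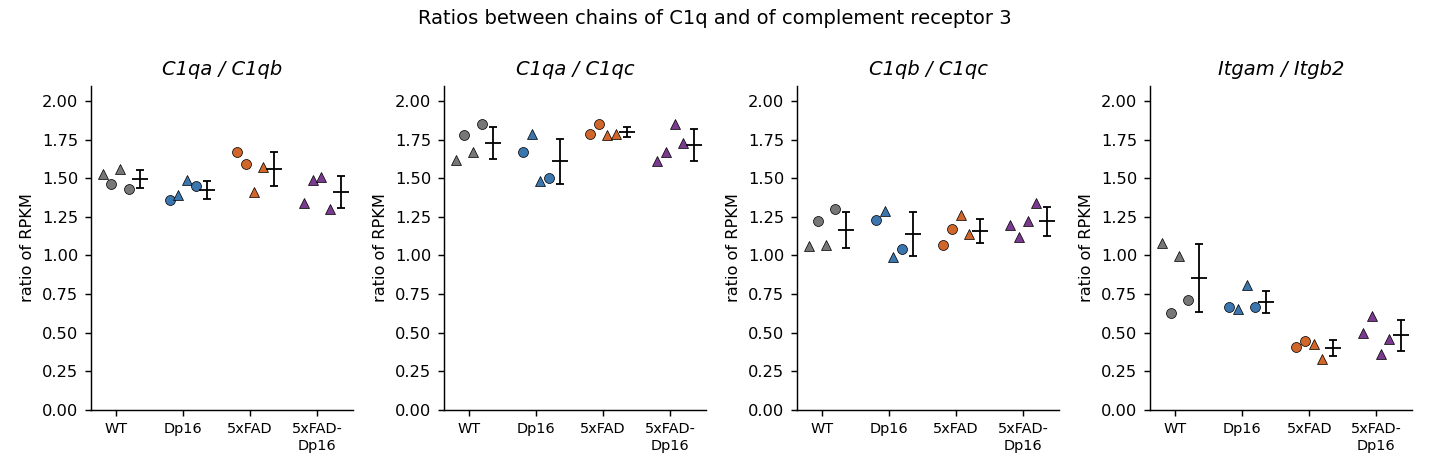
Ratios of RPKM between C1q chains and between the chains of complement receptor 3 (vertical axis, no unit) in each library, by genotype; circles are females, triangles males, black marks the mean and SD (n = 4). The C1q ratios stay between 0.993 and 1.85, and the Itgam to Itgb2 ratio lies between 0.328 and 0.607 with the transgenes and between 0.626 and 1.08 without.

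The duplicated segment alone left the 9 members without a call. In Dp16 against wild-type edgeR called 14 genes (0.0839%) and 0 members, DESeq2 called 38 genes and 0 members, and 552 genes and 2 members (C3 and C4b) had a p below 0.05 before adjustment. C4b was at 1.5-fold (log2 0.58 ± 0.259, adjusted p = 0.99) and was the only member in which every Dp16 library was above every wild-type library (1.37% of all genes tested). C3 was at 1.53-fold (log2 0.61 ± 0.277, adjusted p = 0.99), with overlap. The C1q chains lay between log2 -0.0548 and 0.0536, with 95% intervals from -0.288 to 0.303 over the 3 genes, so that a rise of the size seen with the transgenes lies outside them. Itgb2 was at log2 0.23 ± 0.148 (adjusted p = 0.99).

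In 5xFAD-Dp16 against 5xFAD edgeR called 9 genes (0.0539%) and DESeq2 27, with 0 members in both, and 547 genes and 1 member (C3) had a p below 0.05 before adjustment. C1qa was at log2 -0.25 ± 0.119, C1qb at -0.11 ± 0.104 and C1qc at -0.20 ± 0.127 (adjusted p = 1 for each), and C3 at log2 0.71 ± 0.293 (adjusted p = 1). The C3 value again includes the sex term, beside plain means of 4.94 CPM in 5xFAD and 5.83 in 5xFAD-Dp16. Over the alternatives it ranged from log2 0.242 to 1.04. C4b was at log2 0.24 ± 0.284 and turned to -0.08 without 5xFAD replicate 4. The interaction, the transgene effect with the duplication minus that without it, called no gene by edgeR (0 of 16684, 0%) or DESeq2 (0), where 332 genes and 0 members had a p below 0.05 before adjustment. Its values for C1qa (log2 -0.20, 95% interval -0.538 to 0.146), C1qb (-0.12, -0.42 to 0.178), C1qc (-0.26, -0.622 to 0.112), C4b (-0.34, -1.15 to 0.47) and Itgb2 (-0.29, -0.741 to 0.166) span 0. A difference between the transgene effects on both backgrounds was therefore not detectable, which does not show that they were alike.

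With both changes together, 5xFAD-Dp16 against wild-type, 7 of the 9 rose (169 genes called, 1.01%), all but C5ar1 (log2 0.62, adjusted p = 1) and Itgam (log2 0.80, adjusted p = 0.274). This comparison shares the wild-type libraries with that of 5xFAD. C3 was at 2.96-fold (log2 1.57 ± 0.304, adjusted p = 0.0171), and 3 of its 4 5xFAD-Dp16 libraries, those at 5.63 to 7.75 CPM, were above all of wild-type. It did not pass when wild-type replicate 1 (adjusted p = 0.101), wild-type replicate 3 (0.091), 5xFAD-Dp16 replicate 1 (0.0602) or 5xFAD-Dp16 replicate 2 (0.0545) was left out. Nor did it pass in a model without sex (log2 1.06, adjusted p = 0.42) or in males only (log2 1.63, adjusted p = 0.228). C4b was at 3.34-fold (log2 1.74 ± 0.284, adjusted p = 0.00459). That call ended in males only (log2 1.67, adjusted p = 0.107) and when just these 8 libraries were fitted (log2 1.68, adjusted p = 0.0782). It also ended with the homeostatic microglia score as a covariate (log2 0.494, adjusted p = 0.189). C1qa (log2 1.25), C1qb (1.33), C1qc (1.24), C3ar1 (1.93) and Itgb2 (1.70) passed as well, with adjusted p of at most 0.00391, although C3ar1 did not pass when just these 8 were fitted (0.125) or with that covariate (0.0749).

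**Figure D3:**
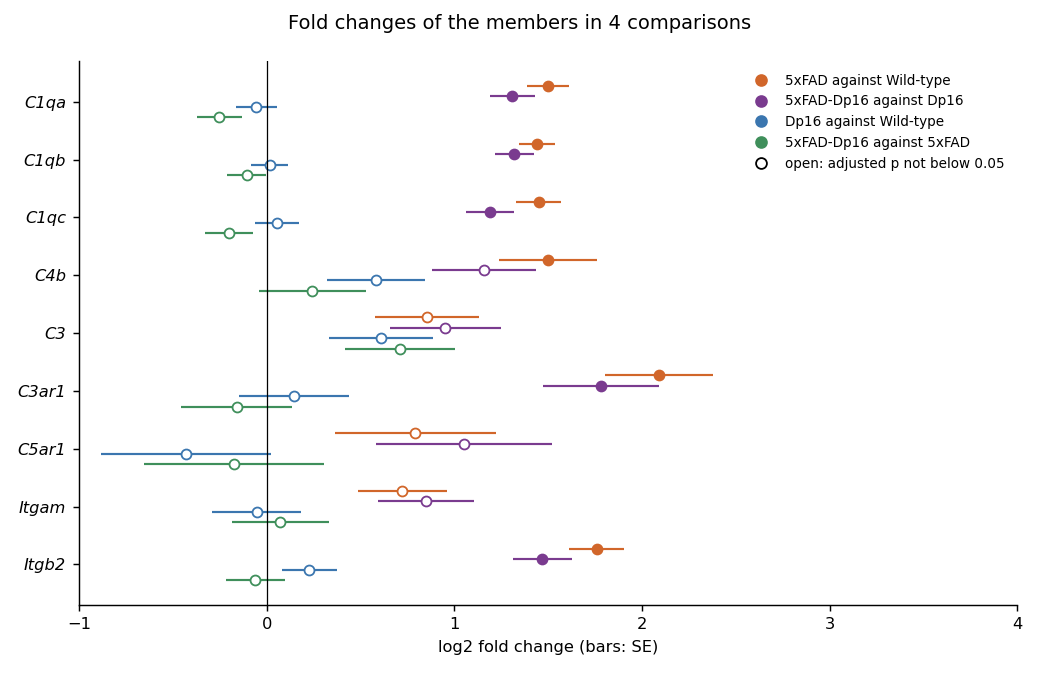
Fitted log2 fold change of each member (horizontal axis, bars are the SE) in 4 comparisons; filled points have an adjusted p below 0.05. The filled points belong to the comparisons that add the transgenes, and those that add the duplication lie between log2 -0.43 and 0.71.

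All 9 members were higher in females by sign, as were 49.4% of all genes tested, and none passed (median log2 0.236, beside -0.00206 over all genes). Many marker lists had the same sign with 0 genes passing: homeostatic microglia in 12 of 12 (median log2 0.13), disease-associated microglia in 15 of 16 (0.209), choroid plexus in 7 of 7 (0.706), meningeal fibroblasts in 6 of 6 (0.615) and endothelial cells in 6 of 6 (0.184). So had midbrain and hypothalamus in 7 of 8 (1.37) and oligodendrocytes in 6 of 6 (0.193). Hippocampal neurons (1 of 7 positive, -0.273), thalamus (2 of 7, -0.0412) and neutrophils (1 of 3, -1.37) went the other way, again with 0 passing. The part of these lists in the sex difference of the members was not tested. For sex edgeR called 8 genes (0.048%) and DESeq2 21, with 0 members in both, and 974 genes and 4 members (C1qa, C1qb, C3 and Itgb2) had a p below 0.05 before adjustment. C3 was at 1.81-fold in females (log2 0.85 ± 0.226, adjusted p = 0.775) and Itgb2 at log2 0.39 ± 0.119 (adjusted p = 0.776). C1qa and C1qb were each at log2 0.24 (adjusted p = 0.814 and 0.808). Over the 12 libraries of the 3 genotypes with both sexes, the difference between the 5xFAD effect in females and in males called no gene by edgeR (0 of 16416, 0%) or DESeq2 (0), where 2448 genes had a p below 0.05 before adjustment. Itgam was the only member among those, with log2 1.2 ± 0.309 (adjusted p = 0.33). Its 5xFAD females were at 23.1 and 19 CPM and its 5xFAD males at 14 and 9.02, against 8.38 and 8.74 in wild-type females and 11 and 10.4 in wild-type males. One of the 2 5xFAD males is replicate 4, and without it the value was log2 0.91.

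Genes of other cell types were examined beside the members. Of 12 homeostatic microglia genes, such as Siglech and Cx3cr1, 6 rose in each transgene comparison, with medians of log2 0.692 and 0.755. Of 16 genes of disease-associated microglia 10 and 9 rose. In the reactive astrocyte list 3 of 10 tested genes rose in 5xFAD and 1 of 10 in 5xFAD-Dp16 against Dp16, with Gfap among them both times (log2 1.43 and 1.29). The 4 monocyte markers Ccr2, Ly6c2, Plac8 and Chil3 summed to at most 1.53 CPM in any library, and border macrophage, T and NK cell, endothelial and meningeal lists had no called member. In the neutrophil list 1 of 3 tested genes rose, Csf3r, which microglia also express, and in 5xFAD S100a8 ranged from 0 to 4.98 CPM. Lists of tissue content shifted without a gene passing. Hippocampal neuron genes had medians of log2 -0.199 and -0.436, and midbrain and hypothalamus genes of 1.89 and 2.82 over 8 tested genes. Oligodendrocyte genes had medians of 0.276 and 0.36, with 6 of 6 positive in each comparison. Choroid plexus genes had medians of 0.0796 and 1.45 (7 of 7 positive in 5xFAD-Dp16 against Dp16), and thalamus genes of 0.732 (7 of 7 positive in 5xFAD) and 0.0863. The part of these lists in the changes of the members was not tested.

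The members were therefore also set against the homeostatic microglia score of the same library, which was 4.85 to 4.99 in wild-type, 4.75 to 4.88 in Dp16, 5.2 to 6.07 in 5xFAD and 5.32 to 5.64 in 5xFAD-Dp16. As the score is higher with the transgenes, a gene of unchanged level falls on this relative scale, which lowers the share of all genes that lie above. Whether the score follows the number of microglia was not tested. On this relative log2 scale, 6 of the 9 lay above wild-type in every 5xFAD library (0.551% of all genes tested) and 5 of the 9 above Dp16 in every 5xFAD-Dp16 library (0.42%). C1qa was at 1.13 ± 0.153 (wild-type), 1.2 ± 0.0703 (Dp16), 1.93 ± 0.166 (5xFAD) and 1.71 ± 0.171 (5xFAD-Dp16), each with its SD over 4 libraries. Itgb2 was at -2.11 ± 0.216, -1.77 ± 0.167, -1.09 ± 0.158 and -1.18 ± 0.133 in that order, and C3ar1 at -3.95 ± 0.518, -3.64 ± 0.301, -2.59 ± 0.273 and -2.64 ± 0.244. In all 3 genes the groups with and without transgenes were apart on this scale. Itgam showed no such gap, with overlapping groups at -1.65 ± 0.186 (wild-type), -1.57 ± 0.076 (Dp16), -1.68 ± 0.278 (5xFAD) and -1.52 ± 0.219 (5xFAD-Dp16). C5ar1 lay between group means of -4.94 and -4.61 and C3 between -3.47 and -2.78, with overlapping groups. C4b was at 0.449 ± 0.112 in wild-type, below every library of the other genotypes, and the means of Dp16 (1.13 ± 0.198), 5xFAD (1.17 ± 0.314) and 5xFAD-Dp16 (1.48 ± 0.356) overlapped.

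**Figure D4:**
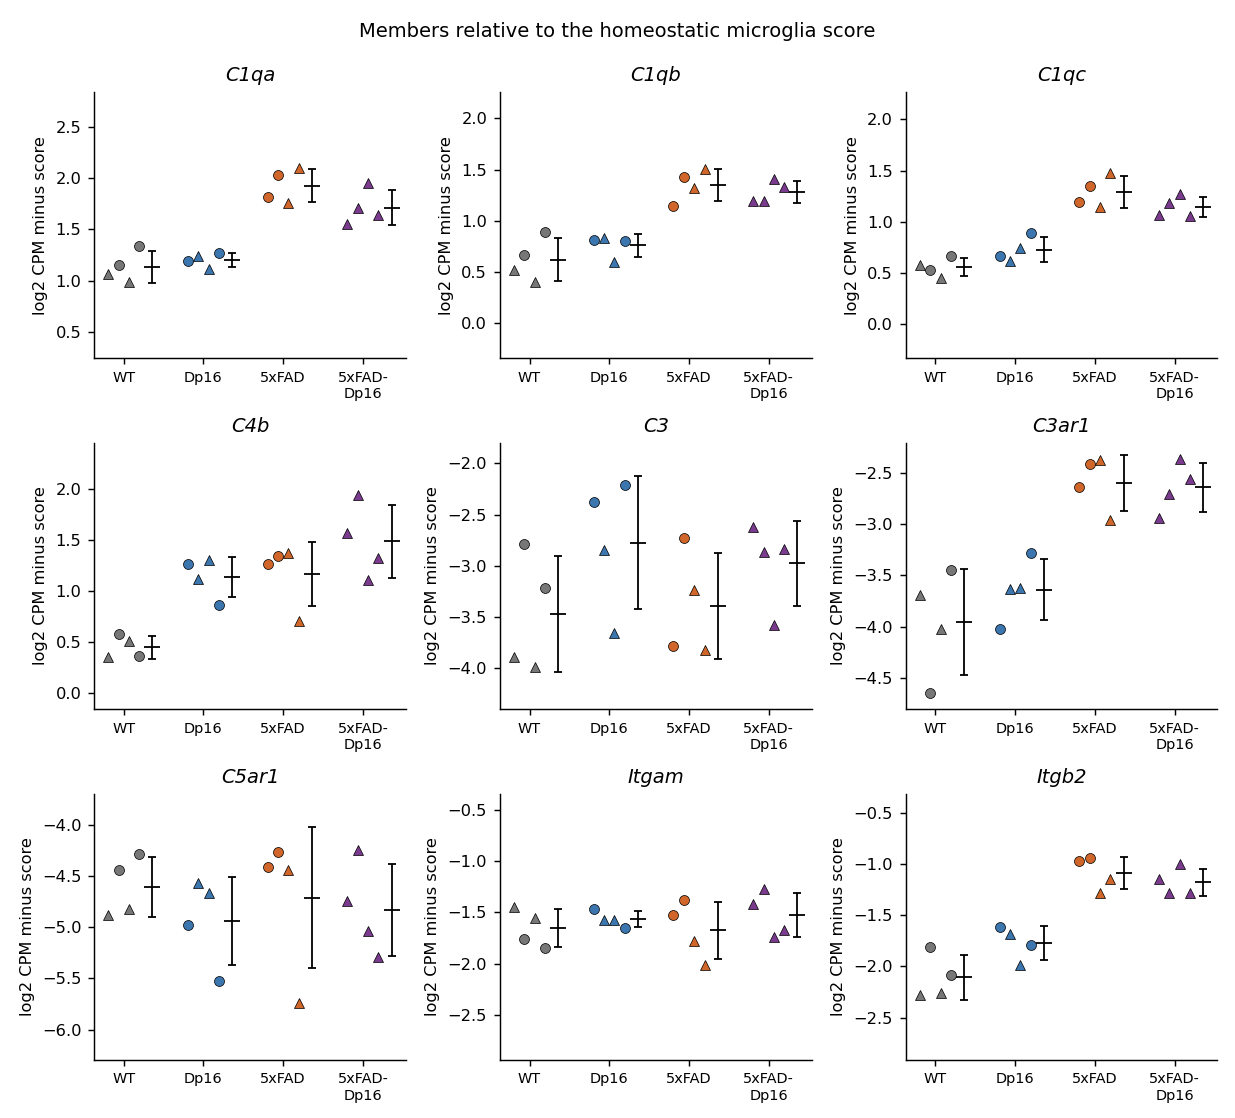
Each member's log2 CPM minus the homeostatic microglia score of the same library (vertical axes in log2 units, of equal span), by genotype; circles are females, triangles males, black marks the mean and SD (n = 4). C1qa, C1qb, C1qc, C3ar1 and Itgb2 are higher with the transgenes, and Itgam overlaps across the 4 genotypes.

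Within genotypes most pairs of members varied in the same direction, which was not compared with pairs of other genes. After removal of genotype and sex, over the 16 libraries, r was 0.907 for C4b with C5ar1, 0.889 for C4b with Itgam and 0.779 for C5ar1 with Itgam. Among the C1q chains it was 0.836 for C1qa with C1qc, 0.794 for C1qa with C1qb and 0.551 for C1qb with C1qc. Pairs of a C1q chain with a receptor gene reached similar values, such as 0.722 for C1qb with C5ar1 and 0.693 for C1qc with Itgam, and Itgb2 was at 0.768 with C5ar1 and 0.72 with Itgam. C3 had the lowest values, such as -0.273 with C1qa and -0.176 with C1qc. Pairs without C3 went down to 0.217 for C3ar1 with Itgb2 and 0.333 for C4b with C3ar1. Single genes outside the members reached higher values, such as Lonrf2 with Itgam (0.971) and Fam98b with C4b (0.945). These are descriptions over libraries that differ in tissue content: 5xFAD replicate 4 was the lowest of its group in all 9 members, and the marker scores varied with these genes in the same residuals. For C4b, r was 0.872 with the homeostatic microglia score, -0.855 with thalamus, 0.74 with hippocampal neurons and 0.618 with astrocytes. For Itgam it was 0.901, -0.812, 0.696 and 0.778 with the same scores. For C1qa and C1qb the largest r in size was with choroid plexus (-0.719 and -0.654), beside 0.675 and 0.614 with homeostatic microglia. For C1qc these were -0.525 and 0.784. The part of tissue content in these relations was not tested. Over the 16 libraries without that removal, r also holds the difference between genotypes. Genes most like a C1q chain were then microglial: Ly86 and Trem2 for C1qa (r = 0.989 each), Itgax, Mpeg1 and Ctss for C1qb (0.984 to 0.99) and Ctss, Mpeg1 and Ly86 for C1qc (0.986 to 0.991). Itgb2 was most like Ctsz and Gfap (0.985 each) and Itgax (0.980), and C3ar1 most like Cd68, Ly9 and Cd84 (0.960 to 0.972). Itgam was most like Csf1r, Grn and Laptm5 (0.965 to 0.969), C4b like Bmp2k, Laptm5 and Csf1r (0.935 to 0.952), C5ar1 like Tmem119, Aldh1l2 and Adap2 (0.852 to 0.886) and C3 like Cyp4f13, Ulk3 and Csf2rb (0.813 to 0.870). After removal of genotype and sex, other genes were nearest to the C1q chains. For C1qa they were Cyp4f14, Sfxn5 and Abhd4 (0.860 to 0.899), and for C1qb Pold2, Nol3 and Cmtm3 (0.827 to 0.877). For C1qc they were Nfam1, Vsig10l and Slc39a11 (0.886 to 0.897). With and without that removal, the genes named come from the 3 highest r of a search over tested genes outside the members. Such a search over 16 libraries favours high values, and the r it would give by itself was not estimated.

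Outside the members, few complement genes changed. Of 49 other complement genes 27 were tested, and 1 rose in each transgene comparison, Itgax, with none falling. Their medians were log2 0.147 and 0.21. Of the initiating proteases, C1s1 was at 0.438 to 1.7 CPM in wild-type and 0.641 to 1.66 in 5xFAD, and 0 of the 4 tested initiation genes passed. The lectin pathway genes Mbl1, Fcnb and Colec10 had 0 counts in every library. Cfp, properdin, was at 1.12 to 2.54 CPM in wild-type and 1.84 to 3.94 in 5xFAD. Clu, clusterin, the most abundant soluble regulator, was at 1130 to 1400 CPM in wild-type and 1110 to 1600 in 5xFAD. Among 9 tested membrane regulators none passed, with Cd46 at log2 1.18 (adjusted p = 0.522) and 0.21 (0.911) and Cr1l, a mouse inhibitor of C3 activation, at 0.23 (0.555) and 0.07 (0.844). C5ar2, the other C5a receptor, was at log2 0.46 (adjusted p = 0.711) and 0.93 (0.513), and Masp1, a lectin pathway protease, at 0.18 (0.704) and 0.33 (0.573).

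The late components were close to absent from this RNA. The C5 gene Hc had 0 to 30 counts per library, C6 to C9 genes were not tested, and of these C8g had the most, with 4 to 20 counts, while C9 had 0 in every library. Cfb and Cfd, needed for the alternative pathway, had at most 4 and 1 counts. The 6 terminal components together reached at most 0.986 CPM in any library, whereas the 9 members summed to 207 to 254 CPM in wild-type, 235 to 252 in Dp16, 459 to 776 in 5xFAD and 461 to 636 in the cross of both.

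**Figure D5:**
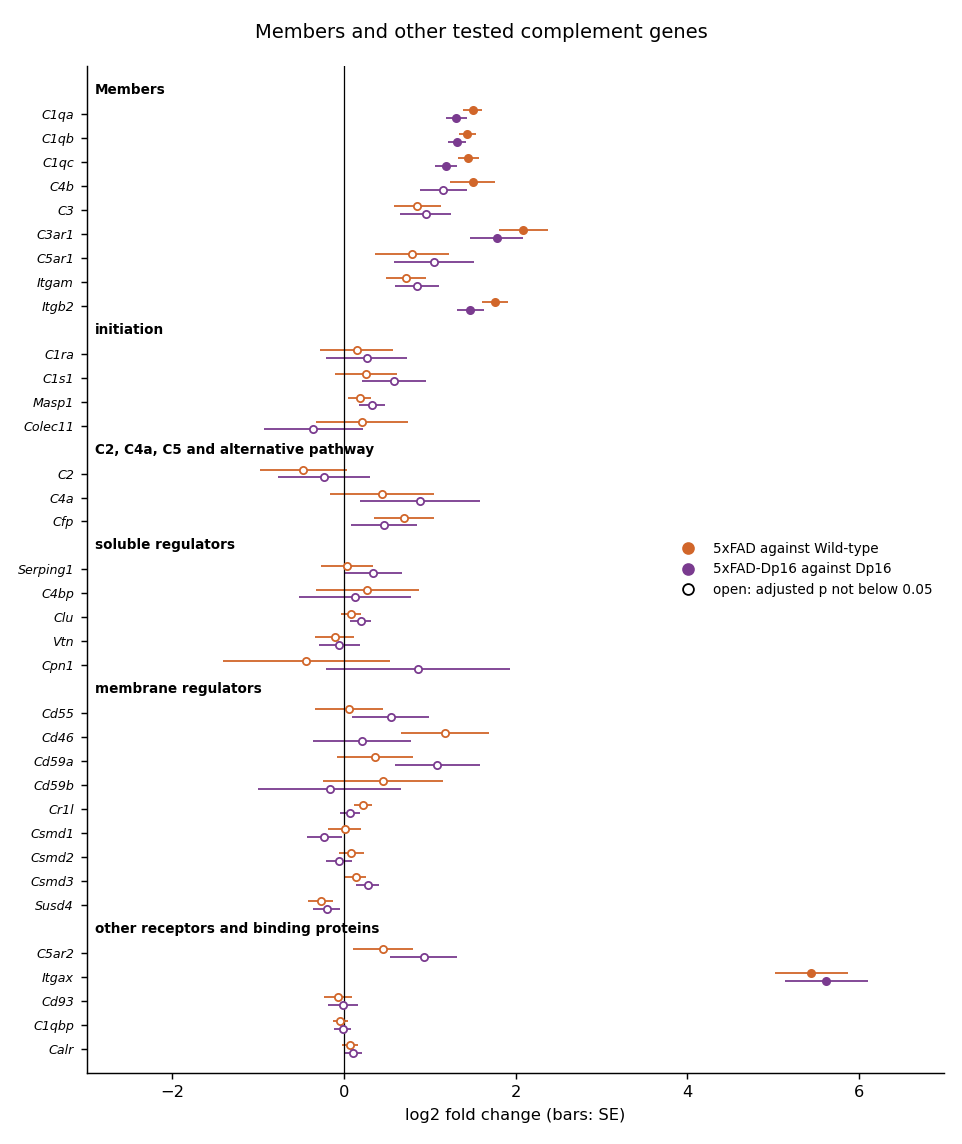
Fitted log2 fold change (horizontal axis, bars are the SE) of the 9 members and 26 of the 27 other complement genes tested, by role, in the 2 comparisons that add the transgenes; filled points have an adjusted p below 0.05. Outside the members Itgax is the one filled gene, at log2 5.45 and 5.62.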

How the data were processed

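RNA was extracted with TRIzol and poly-A libraries were made strand-specific and read as 150-base pairs, per the labels' protocols. The tools listed were bcl2fastq, FastQC 0.11.5, HISAT2 2.1.0, SAMtools 1.5 and HTSeq 0.6.1, and the build was GRCm38, per the submitters' processing notes. The authors deposited raw read counts per gene and RPKM values, and dividing one by the other gave 1 length per gene, within a relative tolerance of 1e-06, in all 24604 of 24604 genes checked. The counting mode and strand setting are not given in the sources used here.

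Counts were fitted with edgeR 4.0.16 in R 4.3.3 (quasi-likelihood, robust, TMM scaling, default low-count filter by genotype) over all 16 libraries, with genotype and sex as terms, and p-values were adjusted by Benjamini-Hochberg over all genes tested; the threshold was 0.05. A second model over 12 libraries had genotype by sex terms. Log2 CPM for scores and correlations used a prior count of 2. The members and gene lists were chosen with earlier results of these data known. All members are named; of the other complement genes, those that passed and the 4 with the smallest p in either transgene comparison follow a rule, and those given by level or count only were chosen after their values were seen. Some genes that these rules name are not reported here. Coordinates came from GENCODE vM21 (GRCm38). The fits were tested on simulated data. DESeq2 1.42.0 was an alternative.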

Additional observations from a re-analysis of the deposited data

Results flagged for a closer look

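Of 60 groups of 4 libraries examined for a single value far from the rest, 2 had one, and chance gives about 1 in 20. C1qa in wild-type replicate 4 was at 80.4 CPM, while wild-type replicates 1 to 3 were at 60.3 to 63.5; this library is one of those high in midbrain genes. Masp1 in Dp16 replicate 4 was at 14.9 CPM against 11.8 to 11.9 in the other Dp16 libraries.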

How the results depend on the processing

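C1qa, C1qb, C1qc, Itgb2 and Itgax passed in both transgene comparisons in all 25 alternatives run (adjusted p of at most 0.0161). Of the values of single genes over the alternatives, 1416 kept direction and side of the threshold, 20 lost the call, 19 gained it and 21 changed sign; the cause was not tested. Counts of called genes moved with DESeq2 (5xFAD against wild-type 292, 5xFAD-Dp16 against Dp16 269, Dp16 against wild-type 38, 5xFAD-Dp16 against 5xFAD 27, 5xFAD-Dp16 against wild-type 267, sex 21), with no low-count filter (398, 620, 210, 75, 355, sex 404, interaction 128, sex difference of the 5xFAD effect 872) and in males only (44, 49, 0, 0, 61). In a model of the compared groups alone they were 76, 81, 4, 0 and 40, leaving out the 4 libraries high in midbrain genes gave 39 in Dp16 against wild-type, and without sex 17 in 5xFAD-Dp16 against 5xFAD. With the homeostatic microglia score as a covariate they were 3987, 3891, 22 (Dp16 against wild-type) and 1178 (5xFAD-Dp16 against wild-type). Leaving out 1 library gave 76 to 146 for 5xFAD-Dp16 against Dp16 (76 and 80 without Dp16 replicates 2 and 3), 80 to 172 for 5xFAD-Dp16 against wild-type (80 and 99 without wild-type replicates 1 and 3) and 0 to 1 for the sex difference of the 5xFAD effect. It gave 3 to 17 for Dp16 against wild-type, lowest without wild-type replicate 2 or Dp16 replicate 3, and 0 to 11 for 5xFAD-Dp16 against 5xFAD, with 0 without Dp16 replicate 1, 2 or 3, 5xFAD-Dp16 replicate 1, 2 or 4 or 5xFAD replicate 3.

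Counts of called members moved with no filter to 8 in 5xFAD-Dp16 against Dp16 and to 1 in Dp16 against wild-type (C4b, adjusted p = 0.00147), for sex and for the sex difference of the 5xFAD effect. In 5xFAD-Dp16 against wild-type they were 4 in a model of those groups and 4 with the score as covariate, and in males only they were 4 in each transgene comparison. That covariate ended the calls of C4b (log2 0.0749, adjusted p = 0.853) and C3ar1 (adjusted p = 0.0572) in 5xFAD and of C3ar1 in 5xFAD-Dp16 against Dp16 (log2 0.92, adjusted p = 0.178), and added C4b in Dp16 (log2 0.797, adjusted p = 0.0422, 1 member). It turned C5ar1 to log2 -1.29, -1.04 and -1.19 and Itgam to -0.525, -0.457 and -0.292 (5xFAD against wild-type, 5xFAD-Dp16 against Dp16, 5xFAD-Dp16 against wild-type), C4b to -0.303 in 5xFAD-Dp16 against Dp16, C5ar2 to -0.295 in 5xFAD and C1qa to 0.00668 in Dp16. The score is itself higher with the transgenes. C4b in 5xFAD against wild-type also lost its call in males only (log2 1.17, adjusted p = 0.22). C1qa in Dp16 was at 0.0487 in males only and 0.0142 with the 4 libraries high in midbrain genes left out, which put Cd46 in 5xFAD at -0.0432. Leaving out 1 library gave log2 ranges of -0.109 to 0.00851 for C1qa, -0.0387 to 0.107 for C1qb and -0.024 to 0.108 for C1qc in Dp16 against wild-type, -0.08 to 0.398 for C4b in 5xFAD-Dp16 against 5xFAD and -0.127 to 0.367 for Cd46 in 5xFAD-Dp16 against Dp16.

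Replicate numbers did not pair the libraries (correlation of same-numbered libraries -0.354 to 0.354, median 0.0416; 3 libraries correlated best with their own number). With the replicate block edgeR called 162, 148, 19, 0 and 173 genes, and 6, 6, 0, 0 and 7 members, in the 5 genotype comparisons. Counting error is largest for C5ar1 (12 to 59 counts), whose 95% interval in 5xFAD against wild-type was log2 -0.123 to 1.71.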
